A study of Mus musculus with 6 samples.

Results

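The 10 genes described here encode regulators of cap-dependent translation: the eIF4E-binding proteins (Eif4ebp1, Eif4ebp2), the cap-binding protein and scaffold of eIF4F (Eif4e, Eif4g1), the kinases of eIF4E (Mknk1, Mknk2), the kinase mTOR and one of its effectors (Mtor, Rps6kb1), and 2 inhibitors of mTOR signalling (Ddit4, Deptor). They were chosen by gene symbol, and all 10 were found among 46504 features of the expression table. The tissue was gastrocnemius, the main calf muscle, of wild type mice, and RNA was the polyA fraction. The restraint group held 3 libraries of mice confined in 50 mL tubes for 3 h every 4 days, labelled day 4, and the control group held 3 libraries labelled control at day 4. Age, sex and strain are not given in the sources used here. The treatment text is the same for both groups, and how many sessions preceded sampling is not given. Nothing in the labels ties the libraries to separate mice. The p-values therefore describe variation among the 6 libraries, part of which may be technical. By its title, the study asked how neuroinflammation and skeletal muscle interact in this stress.

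Translation of most mRNAs begins when eIF4E binds the cap and recruits the scaffold eIF4G and a helicase, together called eIF4F. In their unphosphorylated form the 4E-BP proteins hold eIF4E away from eIF4G. The kinase complex mTORC1 phosphorylates the 4E-BPs, which releases eIF4E, and activates S6 kinase. In muscle this pathway links feeding, insulin, amino acids and loading to protein synthesis, and glucocorticoids, fasting and lack of energy restrain it. The counts are of RNA. Phosphorylation and protein were not measured by this assay.

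Total counts were between 44290720 and 51125779 per library. A count was recorded for 23147 features, and 15448 passed the filter on low counts, all 10 genes included. Restraint was compared with control by edgeR's quasi-likelihood test with Benjamini-Hochberg adjustment over all tested features, and a gene was called at an adjusted p under 0.05. This called 282 features, or 1.83% of those tested. All 11 muscle fibre markers, such as Acta1 and Ckm, were abundant and edgeR called none; 0 had an unadjusted p under 0.05. Their summed level was 156970 to 163570 TPM (transcript level per length and library) in restraint libraries and 151210 to 164740 TPM in control libraries. Mitochondrial genes took 13.2% to 15.1% of counts in restraint libraries and 14.0% to 19.3% in control libraries, most in control 2 and least in control 3 among the controls. Those same 2 libraries bounded many of the genes described here: 7 of 10 had their lowest control value in control 2, and 7 of 10 their highest in control 3. The part of library composition in these values was not tested.

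Restraint muscle had about 2.11 times the Eif4ebp1 RNA of control muscle and 1.83 times the Mknk2 RNA, and both were called higher. Ddit4 was several-fold higher in 2 of 3 restraint libraries and at the control level in the third, and was not called. The other 7 genes had log2 fold changes between -0.29 and 0.32 and were not called. Of the 10 genes, then, 2 were called higher and none lower, where 1.26% of all tested features were called higher and 0.563% lower. In CPM (counts relative to library size) the groups did not overlap for 4 of the 10 genes (Eif4ebp1 and Mknk2 higher, Deptor and Rps6kb1 lower), against 21.8% of all tested features. In TPM the groups of Deptor and Rps6kb1 did overlap, while those of Eif4ebp1 and Mknk2 did not. The share over all features was taken in CPM only. The unadjusted p was under 0.05 for 5 of the 10 genes, against 15.6% of all tested features. The median log2 fold change of the 10 genes was 0.16, beside -0.0053 over all tested features, and it was 0.068 without control 2 and 0.28 without control 3.

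**Figure D1:**
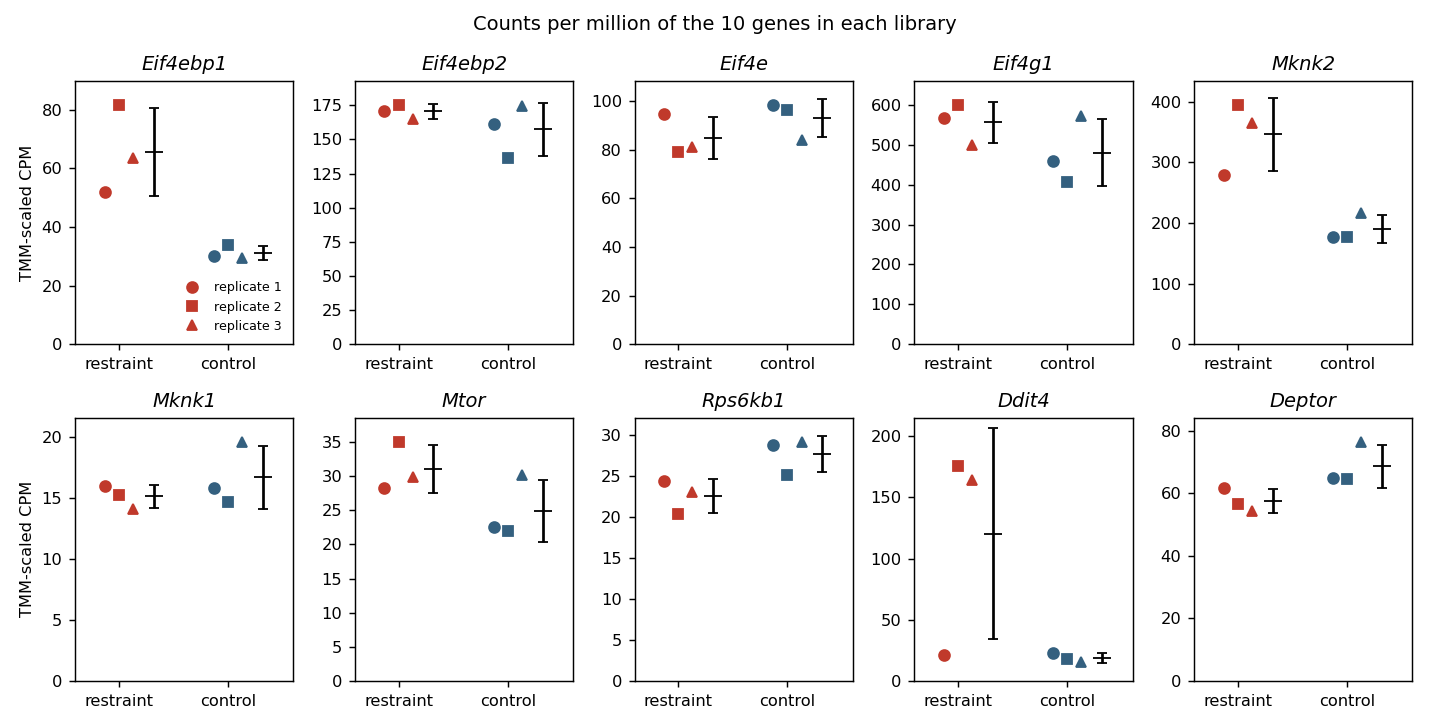
TMM-scaled CPM (counts relative to library size) of each gene in the 3 restraint libraries and the 3 control libraries, with the replicate number as symbol; black bars are the mean and SD (n = 3). Eif4ebp1 and Mknk2 are higher in every restraint library, and Ddit4 stands at 175.6 and 164.4 CPM in restraint 2 and 3 but at 20.9 CPM in restraint 1.

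Of the translational repressors of the 4E-BP family, Eif4ebp1 was called higher and Eif4ebp2 was not called. Eif4ebp1 (gene 13685, GRCm38 chromosome 8, 27260327 to 27275656) encodes 4E-BP1. It stood at 51.9, 81.7 and 63.6 CPM in restraint 1 to 3, against 30.0, 33.8 and 29.4 CPM in control 1 to 3. Every restraint library was above every control library, and the spread was wider in restraint. The means were 65.7 ± 15.002 CPM in restraint and 31.1 ± 2.40 CPM in control (SD, n = 3 each). Its log2 fold change was 1.08 ± 0.16 (SE) with, by edgeR, an adjusted p of 0.0194. The call depended on the libraries kept. Without restraint 1 and without restraint 2 the edgeR adjusted p was 0.00748 and 0.0354, while without restraint 3, control 1, control 2 and control 3 it was 0.0738, 0.134, 0.0602 and 0.0571, with log2 fold changes from 0.89 to 1.23 over the 6 fits.

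Eif4ebp2 (gene 13688, chromosome 10, 61428491 to 61452790) encodes 4E-BP2, a paralog with the same binding role. It had 171, 175 and 165 CPM in restraint 1 to 3, against 161, 136 and 175 CPM in control 1 to 3. The groups overlapped, and the log2 fold change of 0.11 ± 0.11 did not pass (adjusted p = 0.701 by edgeR). Eif4ebp3, the remaining family member, was barely counted, with 0.247 to 0.671 CPM in restraint libraries and 0.165 to 1.27 CPM in control libraries.

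Because 4E-BP1 and 4E-BP2 share a role, their levels were compared within each library in TPM, which are per length. Eif4ebp1 made up 59.3%, 70.5% and 65.0% of the summed TPM of both genes in restraint 1 to 3, against 49.1%, 56.4% and 45.1% in control 1 to 3. The ratio of Eif4ebp1 to Eif4ebp2 was 1.45, 2.39 and 1.85 in restraint 1 to 3, against 0.964, 1.30 and 0.821 in control 1 to 3. The groups did not overlap, and the mean log2 ratio was 0.88 higher in restraint, with a pooled SD of 0.35 on that scale. The two-sided exact permutation p over the 6 libraries was 0.1, the smallest that 3 against 3 libraries can give. The sum of Eif4ebp1 and Eif4ebp2 was 129, 187 and 139.8 TPM in restraint 1 to 3, against 90.4, 77.04 and 109 TPM in control 1 to 3.

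Neither eIF4F gene was called. Eif4e (gene 13684, chromosome 3, 138526191 to 138559696), the cap-binding protein, had 94.6, 78.9 and 81.0 CPM in restraint 1 to 3, against 98.3, 96.4 and 83.9 CPM in control 1 to 3. Its groups overlapped, with a log2 fold change of -0.13 ± 0.11 and, by edgeR, an adjusted p of 0.653. Eif4g1 (gene 208643, chromosome 16, 20672720 to 20692883), the scaffold that joins eIF4E to the ribosome through eIF3, had 568, 600.2 and 500.2 CPM in restraint 1 to 3, against 460.1, 407 and 572 CPM in control 1 to 3. Here too the groups overlapped, through control 3, and the log2 fold change was 0.21 ± 0.14 (adjusted p = 0.542 by edgeR).

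The balance of repressor to cap-binding transcripts was taken as the summed TPM of Eif4ebp1 and Eif4ebp2 over that of Eif4e. It was 4.63, 6.86 and 8.46 in restraint 1 to 3, against 3.09, 2.95 and 4.04 in control 1 to 3. All 3 restraint libraries were above all 3 controls, with means of 6.65 ± 1.92 in restraint and 3.36 ± 0.59 in control (SD, n = 3 each). The mean log2 ratio was 0.96 higher in restraint, with an exact permutation p of 0.1, the smallest possible here. The sum includes Eif4ebp1, which was called higher, so this ratio is not separate from that call. The value of restraint 3 rests partly on the length that the deposited values assign to Eif4e. Counts and FPKM together imply a length of 9317 bases for Eif4e in restraint 3 and of 6192 to 6805 bases in the other 5 libraries, whereas the other 9 genes varied in implied length by at most 1.08-fold. With 1 length per gene in all libraries, an alternative chosen after seeing the data, the ratio was 4.54, 7.38 and 5.95 in restraint 1 to 3, against 3.16, 3.16 and 3.82 in control 1 to 3, and the groups again did not overlap.

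**Figure D2:**
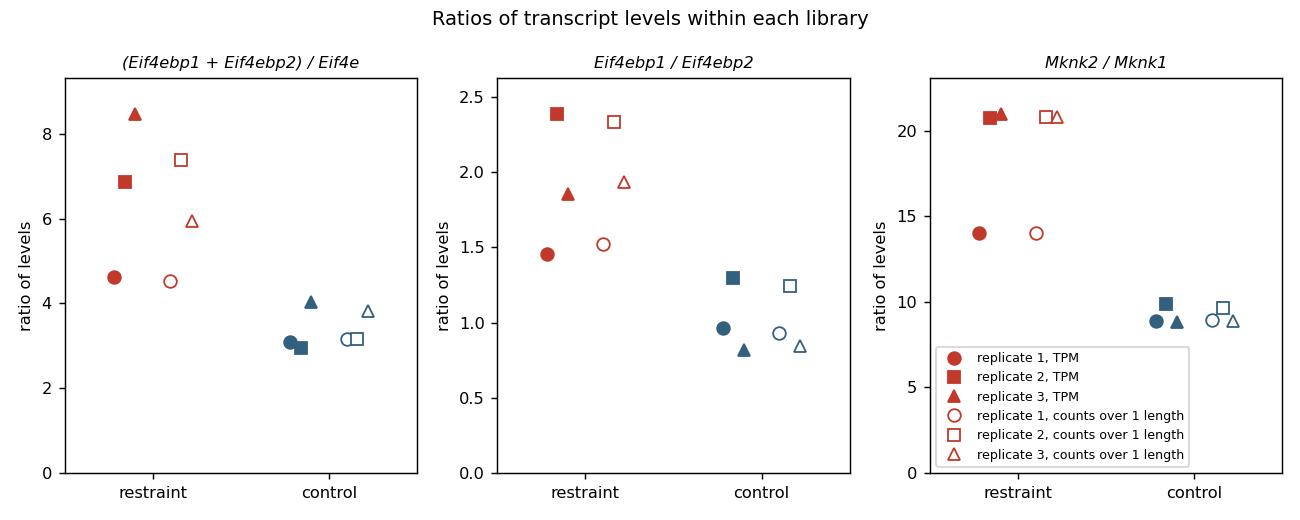
Ratios of transcript levels in the 3 restraint libraries and the 3 control libraries: both 4E-BP genes over Eif4e, Eif4ebp1 over Eif4ebp2, and Mknk2 over Mknk1, from TPM (filled) and from counts over 1 length per gene (open). No restraint library falls among the controls in any of the 3 ratios; the TPM ratio of 4E-BP to Eif4e reaches 8.46 in restraint 3, against 5.95 with 1 length.

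The MNK kinases bind eIF4G and phosphorylate eIF4E. Mknk2 (gene 17347, chromosome 10, 80665318 to 80676293) stood at 279, 395 and 365 CPM in restraint 1 to 3, against 176, 176 and 216 CPM in control 1 to 3. Every restraint library was above every control library. The means were 346 ± 60.2 CPM in restraint and 189 ± 23.0 CPM in control (SD, n = 3 each). Its log2 fold change was 0.87 ± 0.15 (SE) with, by edgeR, an adjusted p of 0.0299. With each library left out, Mknk2 was called without restraint 1 (adjusted p = 0.0128 by edgeR) and without control 3 (0.0402), and was not called without restraint 2 (0.0877), restraint 3 (0.114), control 1 (0.178) or control 2 (0.0954). The log2 fold change stayed between 0.77 and 1.01 in these fits. The call was also lost with library totals in place of TMM factors (adjusted p = 0.0613 by edgeR).

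Mknk1 (gene 17346, chromosome 4, 115837943 to 115879256) had 15.99, 15.2 and 14.1 CPM in restraint 1 to 3, against 15.8, 14.7 and 19.6 CPM in control 1 to 3. The groups overlapped and the log2 fold change was -0.14 ± 0.13 (adjusted p = 0.668 by edgeR). Mknk2 transcripts outnumbered those of its paralog in every library: the ratio of Mknk2 to Mknk1 in TPM was 14.0, 20.7 and 21.0 in restraint 1 to 3, against 8.90, 9.86 and 8.83 in control 1 to 3. The mean log2 ratio was 0.99 higher in restraint, with an exact permutation p of 0.1, again the smallest possible.

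The kinase mTOR and S6 kinase were not called. Mtor (gene 56717, chromosome 4, 148448582 to 148557685) had 28.3, 35.1 and 29.8 CPM in restraint 1 to 3, against 22.6, 21.96 and 30.1 CPM in control 1 to 3. Only control 3 reached the restraint range, and the log2 fold change of 0.32 ± 0.15 did not pass (adjusted p = 0.348 by edgeR). Angptl7, which lies within the span of Mtor on the opposite strand, had 37.4, 70.8 and 54.5 CPM in restraint 1 to 3, against 31.5, 32.7 and 38.5 CPM in control 1 to 3. The sources used here do not say whether counting used strand, so the reads of Mtor and Angptl7 may not be fully separated, and the part of Angptl7 in the Mtor value was not tested. Rps6kb1 (gene 72508, chromosome 11, 86498869 to 86544885), which encodes the S6 kinase that mTORC1 activates, had 24.5, 20.4 and 23.1 CPM in restraint 1 to 3, against 28.8, 25.2 and 29.2 CPM in control 1 to 3. In CPM all restraint libraries were below all controls, by a small margin, and the log2 fold change of -0.29 ± 0.11 did not pass (adjusted p = 0.252 by edgeR). In TPM the groups of Rps6kb1 overlapped, at 7.36 to 7.97 TPM in restraint and 6.90 to 10.4 TPM in control. The span of Rps6kb1 overlaps that of Rnft1 on the opposite strand, which had 26.3 to 32.3 CPM in restraint libraries and 29.2 to 32.4 CPM in control libraries.

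Neither inhibitor of mTOR signalling was called on all 6 libraries by edgeR. Ddit4 (gene 74747, chromosome 10, 59949675 to 59951770) encodes REDD1, which restrains mTORC1 through the TSC complex and is induced by glucocorticoids, hypoxia and energy stress. It stood at 20.9, 176 and 164 CPM in restraint 1 to 3, against 22.9, 18.2 and 15.3 CPM in control 1 to 3. Restraint 1 lay inside the control range, and restraint 2 and 3 were at least 7.19 times any of the other 4 libraries. The fitted log2 fold change was 2.68 ± 0.64, the largest of the 10 genes, but the spread in restraint (120.3 ± 86.3 CPM, against 18.8 ± 3.83 CPM in control, SD, n = 3 each) left an edgeR adjusted p of 0.0833. One library decided this: without restraint 1 the log2 fold change was 3.18 ± 0.18 with, by edgeR, an adjusted p of 0.000464, in a fit that called 2.21% of all tested features, and with each of the other libraries left out the adjusted p was between 0.187 and 0.277. DESeq2 called it on all 6 libraries (adjusted p = 0.0318), in a fit that called 4.31% of the 17258 features given an adjusted p.

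Some macrophage markers shared this arrangement in part. The log2 fold changes of all 10 markers were above 0 (median 0.66). The unadjusted p by edgeR was under 0.05 for 4 of the 10 markers, and 1 marker, Cd68, was called. The summed level of the 10 markers was 86.5, 299.7 and 138.6 TPM in restraint 1 to 3, against 95.5, 73.7 and 74.7 TPM in control 1 to 3. No marker was at 0 in any library. Lyz2 alone held 162 and 69.1 TPM of the sums in restraint 2 and 3. In CPM, restraint 3 was above every control for Adgre1, Cd68, C1qb, Lyz2 and Fcgr1. It lay inside the control range for Csf1r, C1qa, C1qc and Cd163, and below it for Mrc1. Restraint 1 thus lay inside the control range for the summed markers as for Ddit4. For Cd68, however, restraint 1 was at 2.29 CPM, above every control (1.119 to 1.41 CPM). Tendon markers went the other way: the log2 fold changes of all 7 were below 0 (median -0.96). None was called, 5 had an unadjusted p under 0.05, and the summed level was 49.2 to 129.4 TPM in restraint libraries and 98.3 to 157 TPM in control libraries. Markers of endothelium (7), fibroblasts (6), Schwann cells (6), adipocytes (5) and red blood cells (5) held no call by edgeR. Log2 fold changes above 0 numbered 1, 3, 0, 0 and 1 in that order, and unadjusted p under 0.05 numbered 2, 1, 0, 0 and 0. Over all tested features, edgeR called 1.83%, and 15.6% had an unadjusted p under 0.05, so few calls would be seen in lists this short. The part of these other cell types in the values of Ddit4, Eif4ebp1 and Mknk2 was not tested, and in bulk RNA a change in cell number and a change in RNA per cell cannot be told apart.

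Deptor (gene 97998, chromosome 15, 55112317 to 55259273) encodes a protein that binds and inhibits mTOR. It had 61.6, 56.5 and 54.2 CPM in restraint 1 to 3, against 64.7, 64.6 and 76.4 CPM in control 1 to 3. In CPM all restraint libraries were below all controls, but the log2 fold change of -0.26 ± 0.11 did not pass (adjusted p = 0.306 by edgeR). In TPM the groups overlapped, at 10.7 to 12.5 TPM in restraint and 11.4 to 17.5 TPM in control.

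**Figure D3:**
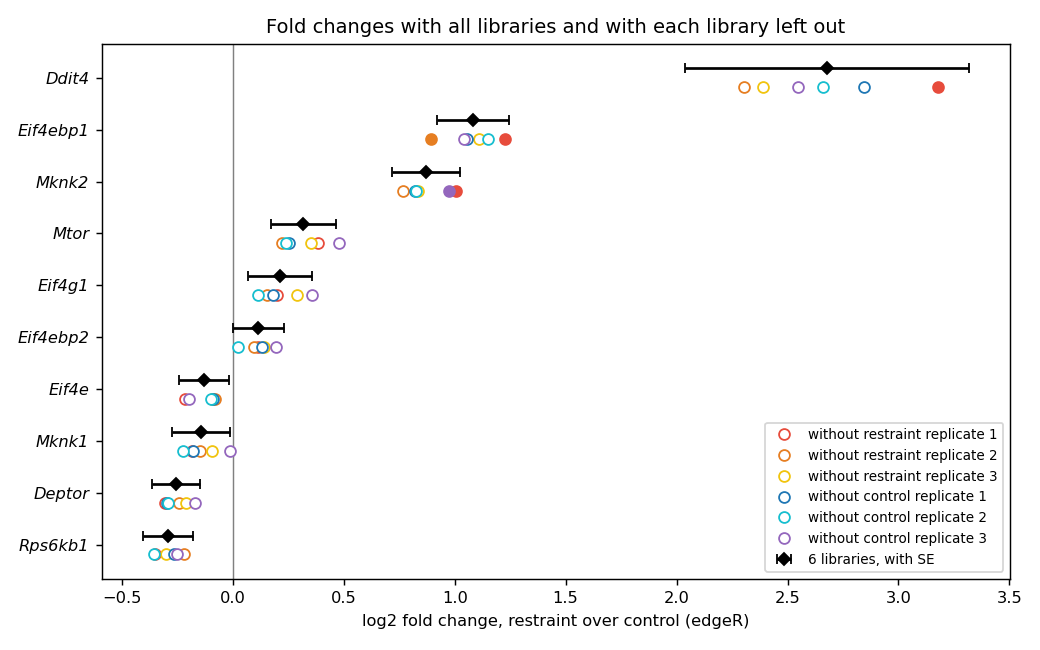
Log2 fold changes of restraint over control by edgeR, with all 6 libraries (diamonds, with SE) and with each library left out (circles, filled where the gene was called). Eif4ebp1 and Mknk2 are called in 2 of 6 fits each and Ddit4 in 1 of 6, the fit without restraint 1 at 3.18; no gene changes sign.

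The bases upstream of the annotated starts of Mknk2, its paralog Mknk1 and Ddit4 are shown because Mknk2 and Ddit4 were both highest in restraint 2 and 3 while Mknk1 was not. Eif4ebp1 was also highest in these 2 libraries. In restraint 1, Mknk2 was above every control but Ddit4 was inside the control range. The bases shown are RefSeq sequences on GRCm38.p6, each 250 bases ending just before the start. Mknk1 had 2 overlapping windows, and the one farther upstream is printed. The table of promoters held 8 of the 10 genes and not Eif4ebp1 or Deptor. Capitals mark matches, on either strand, to the GC box GGGCGG and the E-box CACGTG; bases in lower case match none of the motifs searched.
Mknk2, chr10:80676294-80676543, minus strand: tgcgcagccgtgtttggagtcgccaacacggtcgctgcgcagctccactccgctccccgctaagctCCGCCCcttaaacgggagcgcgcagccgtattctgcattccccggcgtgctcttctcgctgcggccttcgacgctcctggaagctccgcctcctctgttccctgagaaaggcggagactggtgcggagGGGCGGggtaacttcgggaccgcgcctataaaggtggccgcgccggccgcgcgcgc
Mknk1, chr4:115838948-115839197, plus strand: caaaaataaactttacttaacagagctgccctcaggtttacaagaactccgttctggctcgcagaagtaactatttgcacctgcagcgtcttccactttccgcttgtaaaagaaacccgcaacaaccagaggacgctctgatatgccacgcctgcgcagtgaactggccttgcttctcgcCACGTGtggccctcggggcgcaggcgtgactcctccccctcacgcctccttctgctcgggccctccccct
Ddit4, chr10:59951771-59952020, minus strand: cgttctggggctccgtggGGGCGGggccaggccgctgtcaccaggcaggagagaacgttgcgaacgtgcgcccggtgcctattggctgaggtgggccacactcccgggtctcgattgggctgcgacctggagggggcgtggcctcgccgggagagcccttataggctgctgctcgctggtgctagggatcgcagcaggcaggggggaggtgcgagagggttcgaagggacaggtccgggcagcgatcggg
The Mknk2 window held 2 GC boxes, the Ddit4 window 1 and the Mknk1 window 1 E-box. A GC box was present in 32.7% of 32851 promoter windows of this length and an E-box in 6.02%. The glucocorticoid response element (GNACA and its inverted repeat with 3 bases between), the C/EBP-ATF response element TGATGNAAT, the cyclic AMP response element TGACGTCA and the FoxO element GTAAACA, searched on both strands, had no match in these 3 windows. They were present in 0.387%, 0.816%, 1.55% and 3.17% of all windows. GC content was 68.4% for Mknk2, 56.4% for Mknk1 and 70.0% for Ddit4, where the median of all windows was 52.4%.

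In TPM, Eif4g1 was the most abundant of the 10 transcripts over all libraries, at 179 ± 27.9 TPM in restraint and 153 ± 45.8 TPM in control (SD, n = 3 each). Mknk2 followed at 179.8 ± 38.7 TPM in restraint and 96.8 ± 24.1 TPM in control, and its range overlapped that of Eif4g1. Ddit4 and Eif4ebp1 came next, at 128 ± 93.5 and 99.6 ± 28.6 TPM in restraint and 19.2 ± 3.86 and 45.6 ± 2.98 TPM in control. The place of Ddit4 came from restraint 2 and 3: in control its mean was below those of Eif4ebp1, Eif4ebp2 and Eif4e. Eif4ebp2, at 52.2 ± 3.11 TPM in restraint and 46.4 ± 13.1 TPM in control, overlapped Eif4ebp1. Eif4e stood apart below it, at 23.9 ± 6.36 TPM in restraint and 27.4 ± 1.63 TPM in control. The restraint mean and SD of Eif4e include restraint 3 at 16.5 TPM, the library with the implied length of 9317 bases. Deptor, Mknk1, Rps6kb1 and Mtor formed the low end, with means from 11.9 down to 6.42 TPM in restraint and from 14.0 down to 5.10 TPM in control, and each neighbour in that order overlapped the next.

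The genes whose pattern over the 6 libraries was most like that of a called gene were found from the root mean square difference of centred log2 CPM. For Eif4ebp1 the nearest were Cnksr1, Tgif1 and Csrnp1, at 0.114, 0.120 and 0.128 log2 units. Csrnp1 had 5.10, 7.52 and 6.89 CPM in restraint 1 to 3, against 2.73, 2.75 and 2.53 CPM in control 1 to 3. For Mknk2 the nearest were Rhbdf2, Syne1 and Uck2, at 0.0594, 0.0685 and 0.0699 log2 units. Syne1, which encodes a nuclear envelope protein that anchors muscle nuclei, had 57.1, 74.6 and 70.4 CPM in restraint 1 to 3, against 34.7, 37.8 and 40.4 CPM in control 1 to 3.

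Other genes of the pathway were read from 8 lists with 129 genes, of which 128 were tested. Of these, 3 were called, all higher: Flcn, Ppp1r15a and Sgk1. Over all tested features 1.83% were called. DESeq2 called 8 of the 128 genes: these 3 with Eif3j1, Eif4g3, Nprl3, Sesn1 and Tfeb. That fit called 4.31% of the 17258 features to which it gave an adjusted p. The unadjusted p by edgeR was under 0.05 for 22 of the 128, set beside 15.6% of all tested features. Positive log2 fold changes numbered 93 of 128, with a median of 0.10, where 49.1% of all features tested were positive.

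**Figure D4:**
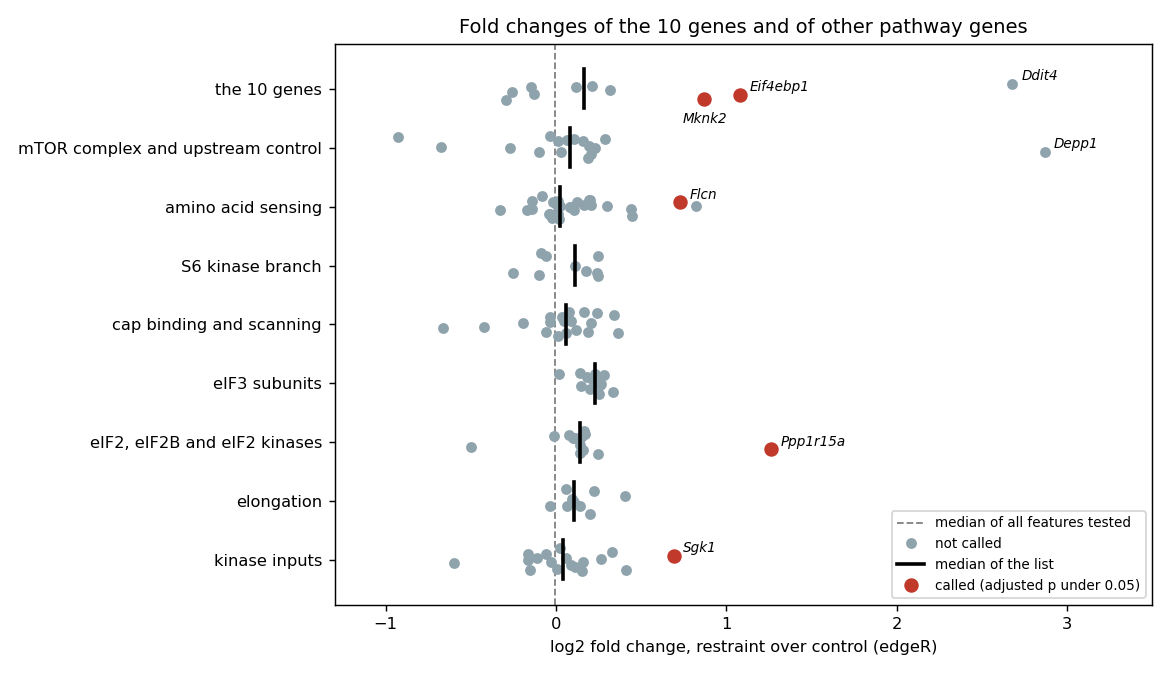
Log2 fold changes of restraint over control (edgeR) for the 10 genes and for the 8 pathway lists, with called genes in red, list medians as black bars and the median of all features tested as a dashed line. The called genes are few, the lowest of them Sgk1 at 0.69; the 13 eIF3 subunits lie together between 0.019 and 0.33.

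Among 16 further genes listed as mTOR complex and upstream control, Depp1 included, none was called. By edgeR, 2 had an unadjusted p under 0.05, Prr5 and Depp1. Prr5, a subunit of mTORC2, had the smallest p, with 2.47, 2.36 and 2.40 CPM in restraint 1 to 3, against 3.39, 3.77 and 4.38 CPM in control 1 to 3. The log2 fold change of restraint over control was -0.68 ± 0.17 with, by edgeR, an adjusted p of 0.094. Depp1, a regulator of autophagy named after its values were seen, had 15.7, 186 and 39.3 CPM in restraint 1 to 3, against 11.4, 12.7 and 8.82 CPM in control 1 to 3. Its log2 fold change of 2.87 ± 0.76 had an edgeR adjusted p of 0.112, and of 0.027 without restraint 1; without restraint 2 the log2 fold change was 1.33 (adjusted p = 0.146). Ddit4l, the paralog of Ddit4 also known as REDD2, had 138, 158 and 119.99 CPM in restraint 1 to 3, against 191, 184 and 128 CPM in control 1 to 3, and was not called (adjusted p = 0.5 by edgeR).

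Of 27 amino acid sensing genes, 1 was called. Flcn, which encodes folliculin, a partner of the Rag GTPases at the lysosome, had 52.7, 59.7 and 45.3 CPM in restraint 1 to 3, against 35.9, 27.9 and 31.4 CPM in control 1 to 3. It was higher by 0.73 ± 0.14 on the log2 scale, with, by edgeR, an adjusted p of 0.038, and no fit with 1 of the 6 libraries removed called it (adjusted p from 0.0711 to 0.126). Tfeb, a transcription factor of lysosomal genes held in the cytoplasm by mTORC1, showed a log2 fold change of 0.44 ± 0.10 and, by edgeR, an adjusted p of 0.082. Of 9 genes of the S6 kinase branch none was called and 1 had an unadjusted p under 0.05. Rps6kb2, the second S6 kinase, had a log2 fold change of 0.25 ± 0.10 (adjusted p = 0.292 by edgeR).

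None of 21 tested cap-binding and scanning genes passed, and 4 had an unadjusted p under 0.05. Eif4g3, a paralog of Eif4g1, had 161 ± 3.22 CPM in restraint and 125 ± 14.2 CPM in control (SD, n = 3 each). Its log2 fold change was 0.36 ± 0.11 with, by edgeR, an adjusted p of 0.152. The 13 eIF3 subunits had log2 fold changes above 0, from 0.019 to 0.33 with a median of 0.23. None passed the test, and 4 had an unadjusted p under 0.05. With upper quartile factors, with FPKM, without restraint 3 and without control 3, 12 of the 13 were positive. Eif3j1, whose reads may be shared with the near-identical Eif3j2, had 172 ± 13.5 CPM in restraint and 137 ± 5.64 CPM in control. Its log2 fold change was 0.33 ± 0.10 (adjusted p = 0.16 by edgeR). Of 15 genes of eIF2, eIF2B and the eIF2 kinases, Ppp1r15a was called. It encodes GADD34, the phosphatase subunit that reverses eIF2 phosphorylation, and had 32.5, 57.9 and 33.5 CPM in restraint 1 to 3, against 15.2, 19.5 and 16.9 CPM in control 1 to 3. It was higher by 1.26 ± 0.22 on the log2 scale (adjusted p = 0.0305 by edgeR) and was called in 2 of the 6 fits that omit 1 library, those without restraint 1 and without restraint 2.

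None of 9 elongation genes was called, and 1 had an unadjusted p under 0.05. Eef1a1, an elongation factor with many processed copies in the genome that can share its reads, showed a log2 fold change of 0.40 ± 0.15 and, by edgeR, an adjusted p of 0.226. Of 18 kinases and lipid signalling genes upstream of the pathway, Sgk1 was called. This kinase, a known glucocorticoid target related to Akt, had 186, 254 and 243 CPM in restraint 1 to 3, against 155, 129 and 139.7 CPM in control 1 to 3. The log2 fold change of restraint over control was 0.69 ± 0.14 with, by edgeR, an adjusted p of 0.0486. With a library left out, Sgk1 was called only without restraint 1 (adjusted p = 0.0213 by edgeR).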

How the data were processed

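For each library the authors deposited whole read counts by feature, together with FPKM and TPM; these 3 deposited units are named per the file headers. The submitters' processing notes list bcl2fastq 2.20.0, Trimmomatic, HISAT2 2.1.0, StringTie 2.1.3b and GRCm38 (mm10) without their roles; the sources used here do not state how strand was used. Gene coordinates are RefSeq's on GRCm38.p6, where all 10 genes matched by identifier.

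Groups follow the treatment label. edgeR 4.0.16 (R 4.3.3) fitted the deposited counts with TMM factors and glmQLFit, after filterByExpr had removed features of low count (count minimum 10, total minimum 15), and glmQLFTest was two-sided. The 825 loci lacking a symbol, 4.84% to 7.14% of counts, stayed in. Each SE is |log2 fold change| over the root of F. CPM carry TMM factors. Ratios used TPM and exact permutation of libraries. Each ratio holds a called gene, Eif4ebp1 or Mknk2, so none is separate from those calls. Libraries within a group differed beyond sampling noise (chi-square over its degrees of freedom at least 27.2). Without TMM factors, a level of 3 counts equals 0.0587 to 0.0677 CPM, which covers counting error only.

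The genes, lists and tests were chosen with earlier results of these data known. The text names all 10 genes, up to 4 called genes per list or else the gene of smallest p, and the 3 genes of nearest pattern for each called gene (average log2 CPM of at least 1). Eif4ebp3, Ddit4l, Depp1, Tfeb, Nprl3, Sesn1, the single macrophage markers, Angptl7, Rnft1 and the genes of the closing section were named after their values were seen. Alternatives were other scalings and filters, DESeq2 1.42.0, limma 3.58.1 (voom, and log2 of TPM or FPKM with a pseudocount of 1, or 0.1 for TPM, for features of at least 1 in 3 libraries), a replicate block, features left out, and each library left out.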

Additional observations from a re-analysis of the deposited data

How the results depend on the processing

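Eif4ebp1 and Mknk2 were both called, and the log2 fold changes of all 10 genes kept their sign, with DESeq2 size factors, upper quartile factors, no filter, a stricter filter, limma voom, without unannotated loci and mitochondrial genes, and without the 10 most abundant features. All signs were also kept in the other alternatives that were run. DESeq2 called 744 features, the same pair with Ddit4, and 8 pathway genes, against 282, 2 and 3 by edgeR. Library totals alone left 1 of the 10 genes (Eif4ebp1) and 1 pathway gene. On log2 scales with pseudocounts, limma called 122 features on TPM + 1, 112 on TPM + 0.1 and 153 on FPKM + 1, each with 1 of the 10 genes (Eif4ebp1) and 0 pathway genes; at an unadjusted p under 0.05 these 3 fits held 1322, 1313 and 1415 features. The share of calls that were higher was 69.1% in the main comparison and 81.1%, 82.1% and 72.5% in these 3 fits, and 81.8% without restraint 3. With each library left out, calls ranged from 16 (without control 1) to 350 (without restraint 1) over all features, from 0 to 3 of the 10 genes and from 0 to 3 of the pathway genes. Counts were 98 without restraint 2, 55 without restraint 3, 51 without control 2 and 174 without control 3. With a replicate block 60 features, 0 of the 10 genes and 1 pathway gene (Ppp1r15a) were called, with an adjusted p of 0.0514 for Eif4ebp1 and 0.0977 for Mknk2 by edgeR; 86.7% of those calls were higher. Deviations from the group mean correlated at 0.0137, -0.201 and -0.209 for same-numbered libraries 1 to 3, and at -0.0225 to 0.22 for libraries of unlike number. With 3 libraries per group, deviations within a group are tied to each other, so these values cannot show whether the libraries were paired. The labels give only the number. For the 3 ratios (log2 differences 0.96, 0.88 and 0.99, which pairing cannot change), the two-sided exact permutation p within the replicate block was 0.25 each, the smallest that 3 pairs can give, against 0.1 without it. Fits with fewer libraries have fewer degrees of freedom; beyond that, the cause of these differences was not tested. The lowest count of any of the 10 genes in any library was 602.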

Other observations

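By the root mean square difference of centred log2 CPM, the genes nearest to Ddit4 over the 6 libraries, looked for after the values of Ddit4 were seen, were Cd68, Tubb6, Lgals3, Mpeg1 and Gpnmb, at 0.259, 0.364, 0.471, 0.494 and 0.509 log2 units. Cd68, a lysosomal protein of macrophages, had 2.29, 13.6 and 11.5 CPM in restraint 1 to 3, against 1.41, 1.24 and 1.119 CPM in control 1 to 3. Tubb6, a tubulin, had 6.69, 41.5 and 27.8 CPM in restraint 1 to 3, against 4.26, 3.85 and 5.03 CPM in control 1 to 3. Lgals3, Mpeg1 and Gpnmb, all known from macrophages, were also lowest among the restraint libraries in restraint 1, at 3.70, 1.12 and 2.34 CPM, and highest in restraint 2, at 21.2, 12.9 and 14.4 CPM. In control libraries Lgals3 was at 2.02 to 3.38 CPM, Mpeg1 at 1.19 to 1.80 CPM and Gpnmb at 1.56 to 1.83 CPM. Ddit4 in restraint 1 lay inside its control range. By contrast, Cd68, Tubb6, Lgals3 and Gpnmb in restraint 1 were above every control, and Mpeg1 was below every control. A rule set after the values of Ddit4 were seen asked for restraint 2 and 3 at least 4 times the other 4 libraries. It also asked for restraint 1 not above the highest control. Of 11088 features with an average log2 CPM of at least 1, only Ddit4 met this rule.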
